A study of Homo sapiens with 6 samples.

Results

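The 51 genes described here work in mitosis: CDK1 and its cyclins and activators, the kinases of the centrosome and spindle, the spindle assembly checkpoint, the chromosomal passenger complex, the kinetochore, the spindle motors, the machinery of cytokinesis, the triggers of anaphase, proteins of mitotic chromosomes and the transcription factor FOXM1. They were taken as the rows of the deposited read count table whose gene name equals a listed symbol, which gave 51 of 58735 genes, and all 51 passed the filter on low counts and were among the 15430 genes tested. The RNA-Seq data came from MCF10A, an established nonmalignant line of human breast epithelium. 3 libraries were from cells given a nontargeting control pool (siControl, genotype labelled WT) and 3 from cells given siRNA against DAB2IP (siDAB2IP, genotype labelled DAB2IP knockdown), each collected 48 hours after transfection. Every library shared the same medium, with horse serum, insulin, epidermal growth factor, cholera toxin, hydrocortisone and antibiotics. DAB2IP is a Ras GTPase-activating protein, and the knockdown was made in a single cell line, with no separate siRNA or rescue among these libraries.

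A cell that leaves S phase builds up cyclins A and B, and CDC25 phosphatases then switch on CDK1, the kinase that drives entry into mitosis. Kinetochores, assembled on the CENP-A chromatin of centromeres, bind spindle microtubules, and the checkpoint holds back anaphase until every chromosome is attached. CDC20 and the anaphase-promoting complex then mark securin and the mitotic cyclins for destruction, separase opens cohesin, and the midzone and contractile ring divide the cell. Transcripts of most of these genes peak in G2 and M phase, and the DREAM complex, the MYBL2-MuvB complex and FOXM1 are known to act on their promoters. In RNA from whole cultures, fewer cells in a phase of the cell cycle and less RNA per cell cannot be told apart.

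DAB2IP (chr9:121567057-121785530) checked the labels. Its level was 103, 94.2 and 77.4 CPM (counts relative to the TMM-scaled library total) in siControl replicates 1, 2 and 3 and 27.5, 25.6 and 22.4 CPM in siDAB2IP replicates 1, 2 and 3, a log2 fold change of -1.86 (SE 0.13, edgeR adjusted p = 9.71e-05). The libraries held between 16353783 and 21916062 counts, and 3 counts correspond to 0.139 to 0.187 of these CPM. siDAB2IP replicate 3 had the highest share of mitochondrial counts, 12.8% against 9.59% to 10.9% in the other 5 libraries. Of 8 mammary epithelial markers, KRT5, KRT14 and KRT17 fell, from means of 3532, 2186 and 813 CPM to 1800, 765 and 560 CPM, while KRT8, KRT18, CDH1, EPCAM and TP63 did not pass the test. The luminal marker PGR and the T cell marker CD3E were at 0 in every library, ESR1 was at means of 0.249 and 0.489 CPM, and PTPRC, COL1A2 and PDGFRA were at means under 0.1 CPM in each group. FOXA1, a luminal marker, rose from a mean of 4.64 to 9.67 CPM and COL1A1, a fibroblast marker, from 15.3 to 26.3 CPM, while GATA3 (20.1 and 14.6 CPM) and PECAM1 (8.59 and 5.32 CPM) did not pass the test. With the replicate block TP63, GATA3 and PECAM1 passed (edgeR adjusted p = 0.00456, 0.0282 and 0.0499), and TP63 also with DESeq2 (0.0208). PDGFRB and CD68 stayed at means under 1 CPM. The part of these marker changes in the results was not tested.

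After knockdown of DAB2IP, 34 of the 51 mitotic genes fell (66.7%), against 7.65% of all genes tested, and none rose, against 6.55% of all genes tested (edgeR's quasi-likelihood test with Benjamini-Hochberg adjustment, adjusted p under 0.05). These genes were chosen with earlier results of these data known. The fitted change was negative for all 51. Its median was -1.15 on the log2 scale, a median of 2.22-fold lower, and ran from -1.65 for KIF20A to -0.63 for PTTG1, while the median over all genes tested was 0.01. In 49 of the 51 genes (96.1%) every siDAB2IP library lay below every siControl library, against 18.3% of all genes tested. BUB1 and ANLN were the genes whose groups overlapped. At an unadjusted p under 0.05, 50 genes were lower, against 15.5% of all genes tested, and 0 higher, and DESeq2 called 21 lower, against 8.98% of the genes it tested, and 0 higher. With the replicate number as a block, edgeR called 47 of the 51 lower, against 11.4% of all genes tested. The labels do not say what a replicate number stands for, so the block is an assumption.

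**Figure D1:**
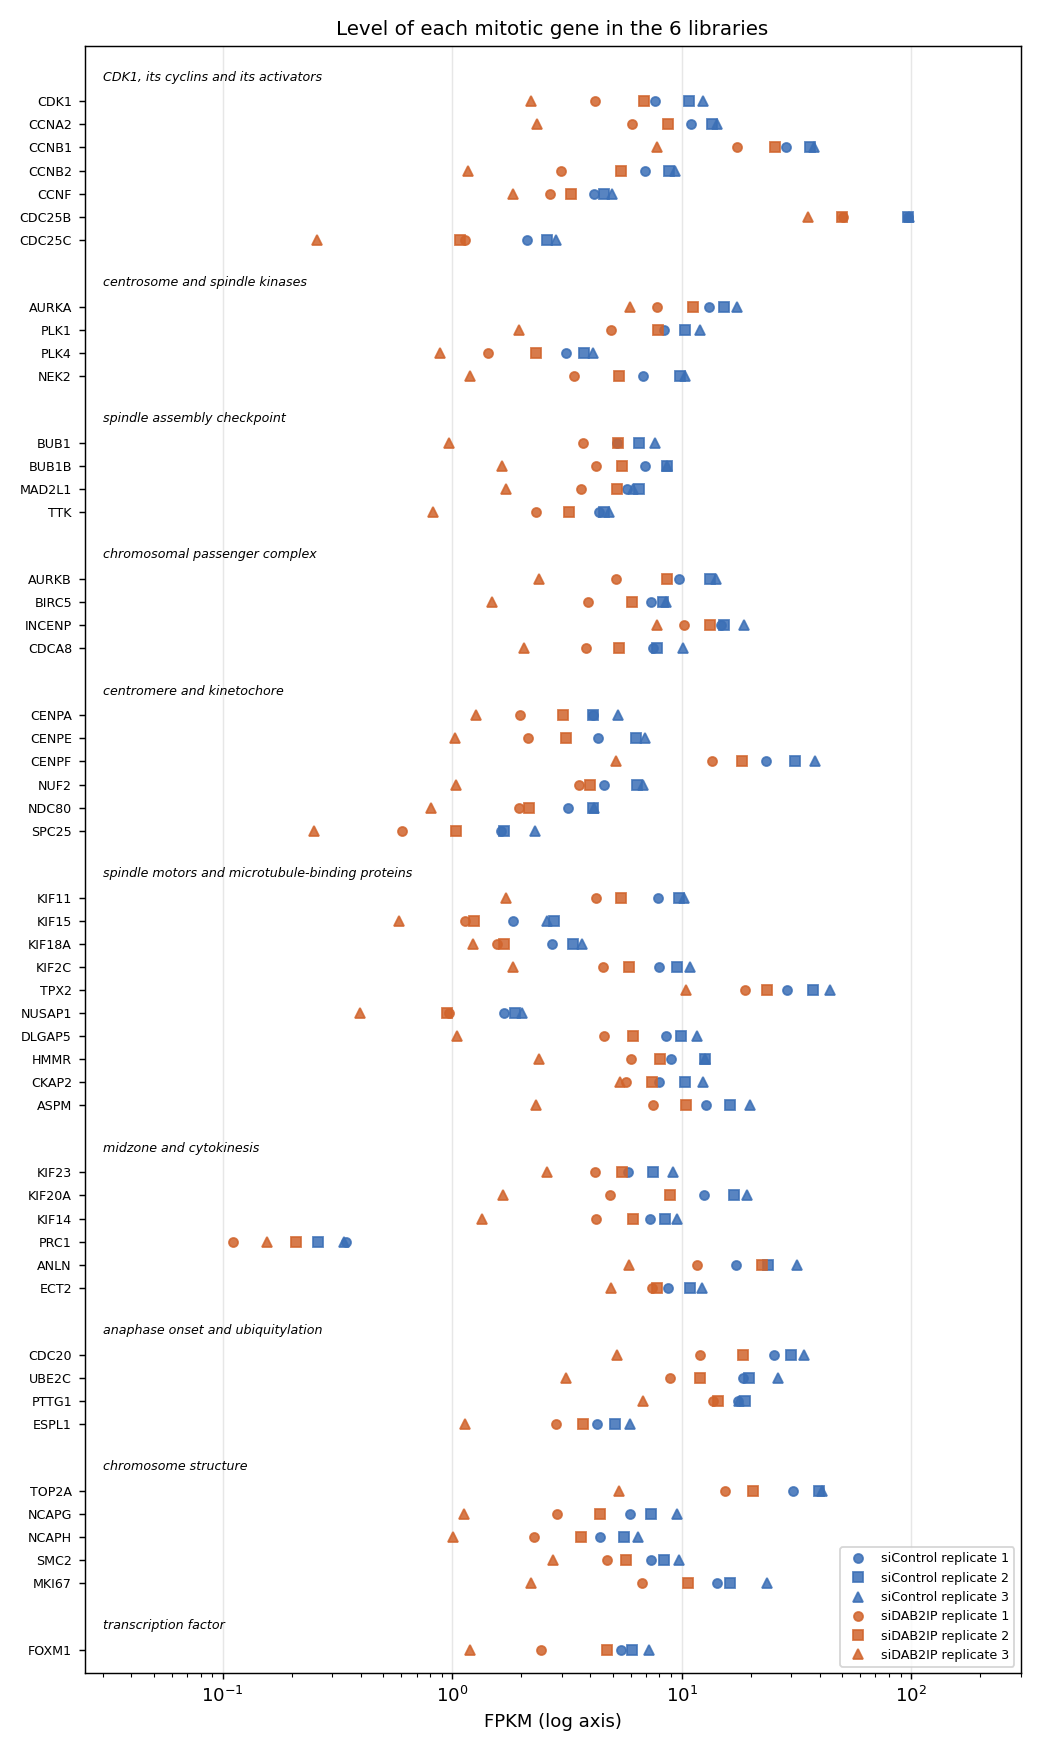
Level of each mitotic gene in FPKM on a log axis, 1 row a gene, grouped by role, with siControl in blue, siDAB2IP in orange and a marker shape for each replicate number. The orange points sit left of the blue points in every row except BUB1 and ANLN, and the orange triangle of siDAB2IP replicate 3 is the leftmost point in 50 of 51 rows.

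Levels per transcript length differed widely within the set. In FPKM, the control mean ran from 0.314 for PRC1 to 97.2 for CDC25B, with a median of 8.48, and the siDAB2IP mean ran from 0.158 to 45.3 with a median of 3.91. The highest and the lowest gene were CDC25B and PRC1 in each of the 6 libraries. Over the 51 genes, the log2 control FPKM and the log2 fold change had a Pearson r of 0.06 and a Spearman rho of 0.06, a description across genes that share the same libraries.

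**Figure D2:**
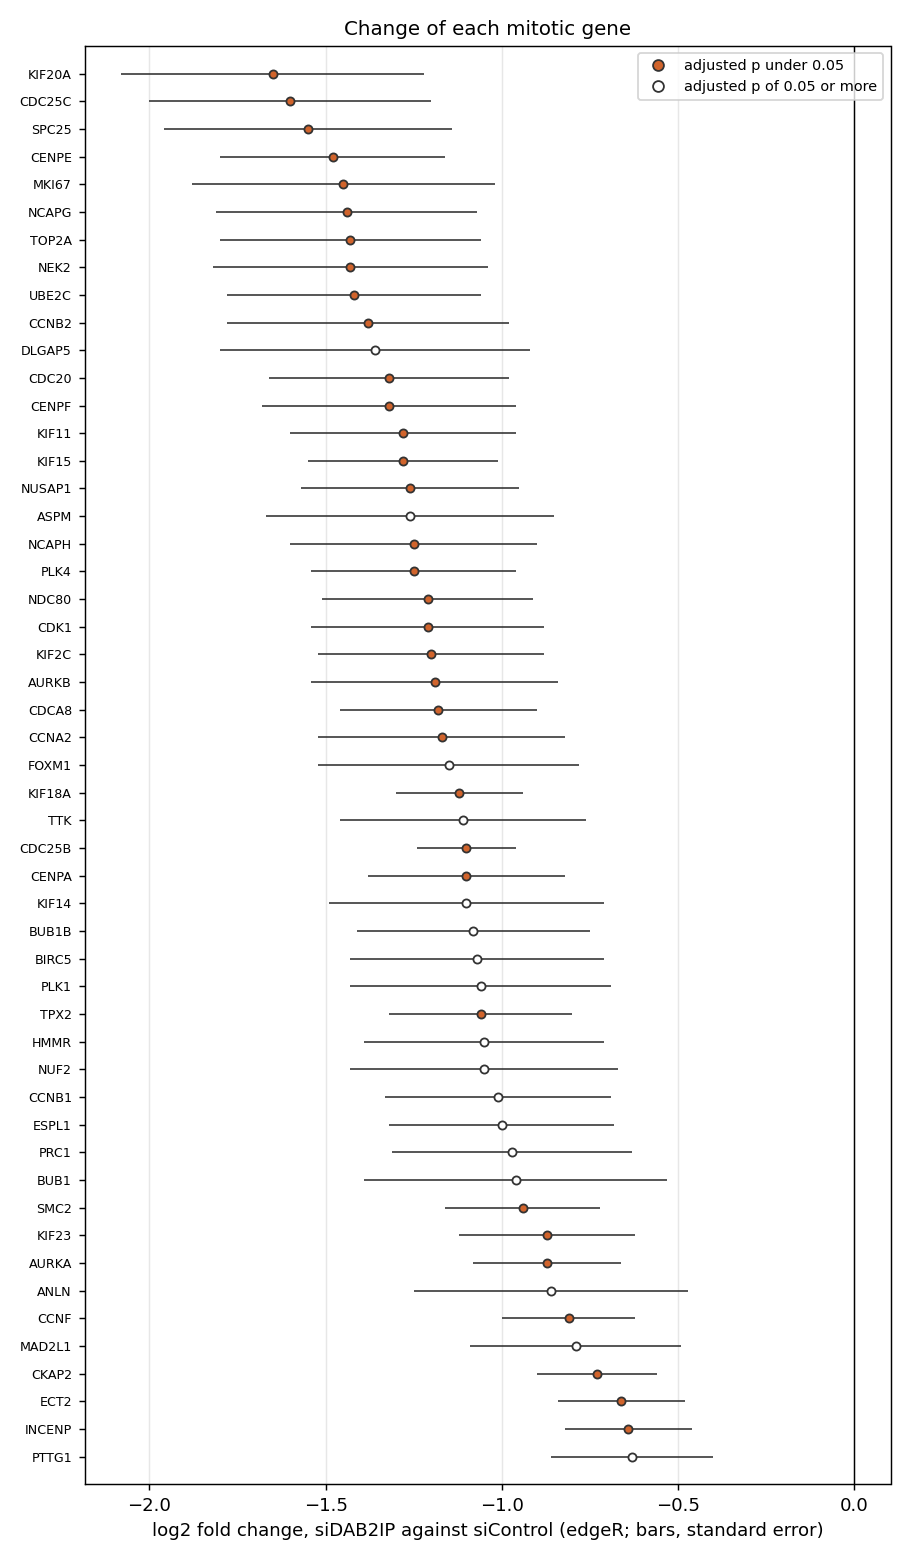
Log2 fold change of each of the 51 genes, siDAB2IP against siControl, from edgeR's fit of 3 against 3 libraries, with bars of 1 standard error and filled points for an adjusted p under 0.05. All 51 points lie left of 0, from KIF20A at -1.65 to PTTG1 at -0.63, and the narrowest bar is that of CDC25B.

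The promoters of these genes are shown because many of them, though not all, share letters that the choice of the genes did not use. RefSeq windows of 300 bases (GRCh38.p14, 250 bases before to 50 after a start) were matched by symbol for 45 of the 51 genes and gave 58 windows. The motifs searched, on both strands, were 2: TTTGAA, the core of the cell cycle genes homology region (CHR element), which MuvB complexes are known to bind, and CCAAT, the box bound by NF-Y, and matches of the pair can share no more than an end base. TTTGAA stood in 36 of the 58 windows (62.1%), against 31.9% of the 138 windows of 100 further mitotic genes, listed by textbook role, 10.6% of the windows of the genes tested and 15.2% of all 35116 windows of the table. CCAAT stood in 40 windows (69.0%), against 50.7% for the further mitotic genes, 34.4% of the windows of the genes tested and 34.6% of all. Both were present in 27 windows (46.6%), against 18.1%, 4.15% and 5.90%, so the further mitotic genes also held these motifs more often than the genes tested. These shares were not compared by a test. The 250 bases before the start are given for 4 of the genes, 5′ to 3′ on the gene's own strand with every match in capitals (TTCAAA and ATTGG are the motifs read on the other strand). CCNB2 and TOP2A fell and hold both motifs, PLK1 holds both but did not pass the test, and CDC25B, whose change had the smallest SE, holds no TTTGAA in any of its windows.
CCNB2 (chr15:59104896-59105145, plus strand): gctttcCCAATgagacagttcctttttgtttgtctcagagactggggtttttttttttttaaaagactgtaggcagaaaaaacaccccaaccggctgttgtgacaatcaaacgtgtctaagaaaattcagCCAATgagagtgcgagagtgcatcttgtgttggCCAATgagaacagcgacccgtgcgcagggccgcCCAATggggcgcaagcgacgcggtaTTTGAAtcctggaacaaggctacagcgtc
TOP2A (chr17:40417897-40418146, minus strand): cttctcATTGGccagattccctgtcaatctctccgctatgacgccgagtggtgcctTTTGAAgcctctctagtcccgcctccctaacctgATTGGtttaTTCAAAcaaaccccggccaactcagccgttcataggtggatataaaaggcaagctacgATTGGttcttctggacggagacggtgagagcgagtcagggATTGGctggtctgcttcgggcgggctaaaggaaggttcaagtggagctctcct
PLK1 (chr16:23678639-23678888, plus strand): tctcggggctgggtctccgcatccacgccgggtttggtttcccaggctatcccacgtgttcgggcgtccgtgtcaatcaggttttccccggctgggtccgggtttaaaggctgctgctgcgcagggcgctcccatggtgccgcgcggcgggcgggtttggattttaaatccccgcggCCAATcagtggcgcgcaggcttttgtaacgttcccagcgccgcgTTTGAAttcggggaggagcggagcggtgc
CDC25B (chr20:3796060-3796309, plus strand, 1 of its 4 windows): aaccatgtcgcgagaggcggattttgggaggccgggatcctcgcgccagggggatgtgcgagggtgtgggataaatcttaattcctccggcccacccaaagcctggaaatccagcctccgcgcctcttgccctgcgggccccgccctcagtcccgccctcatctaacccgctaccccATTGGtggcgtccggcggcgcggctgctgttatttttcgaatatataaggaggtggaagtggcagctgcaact

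Most matches also lay close to the start. Of 48 TTTGAA matches in the mitotic genes, 37 (77.1%) were centred within 100 bases of the start, with a median position of -25, against 42.3% and a median of -122 over all windows. CCNB2 and PLK1 each held their TTTGAA at -26, while the matches of TOP2A lay farther out, at -191 and -148. CCAAT matches had a median position of -84, near the -94 over all windows, and 65.1% lay within 100 bases, against 52.6%. Within the set, the 33 genes with TTTGAA in a window stood at a median change of -1.18 (log2), and 66.7% of them fell, and the 12 without stood at -1.18, and 75.0% fell. Among tested genes outside the set, 10.5% of the 1426 with TTTGAA fell and 7.58% of the 9133 without. These differences were not tested. A match is a description of letters, not of binding, and the windows of a gene are not independent.

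**Figure D3:**
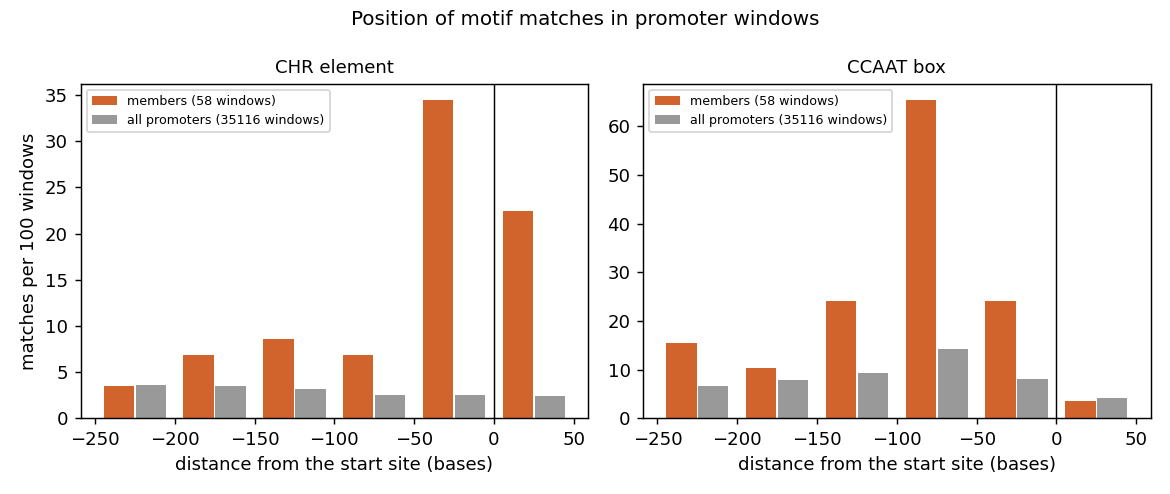
Matches of TTTGAA (left) and CCAAT (right) per 100 promoter windows, in steps of 50 bases along the distance from the start, for the 58 windows of the mitotic genes (orange) and all 35116 windows of the table (grey). The tallest orange bar lies in the 50 bases before the start for TTTGAA and between -100 and -50 for CCAAT.

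Beside the counts of the groups described next, 7.65% of all genes tested fell, 11.4% with the replicate block and 8.98% of those tested by DESeq2. CDK1, its cyclins and its CDC25 activators fell in 6 of 7 genes, with a median of -1.17 on the log2 scale. CDK1 itself was at 30.4, 42.9 and 49.3 CPM in siControl and 16.6, 27.4 and 8.81 CPM in siDAB2IP, -1.21 (SE 0.33, edgeR adjusted p = 0.0365), and its groups did not overlap. CCNA2, the cyclin of S phase and G2, fell by 1.17 (SE 0.35, edgeR adjusted p = 0.0494), close to the threshold. CCNB2, a B-type cyclin, fell from 19.6, 24.7 and 26.4 CPM to 8.41, 15.4 and 3.30 CPM. CCNB1, the main partner of CDK1 at mitotic entry, was at 73.6, 93.2 and 97.1 CPM against 44.8, 66.4 and 20.2 CPM. Its -1.01 (SE 0.32) did not pass the test (edgeR adjusted p = 0.0641, 0.0239 with the replicate block), although every knockdown library lay below every control library. CCNF, a cyclin-like subunit of an SCF ubiquitin ligase, fell by 0.81 (SE 0.19). With DESeq2 the calls of CDK1, CCNA2 and CCNB2 were lost (adjusted p = 0.0637, 0.114 and 0.103).

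The steadiest change of the set was that of CDC25B (chr20:3786772-3806121), the phosphatase that starts CDK1 activation at the centrosome. It was at 424, 420 and 426 CPM in siControl and 221, 217 and 155 CPM in siDAB2IP, 2.14-fold lower (log2 -1.10, SE 0.14, edgeR adjusted p = 0.00171). Its 3 control libraries were nearly alike, and the lowest knockdown library was again replicate 3. CDC25C, the related phosphatase of the G2 to M transition, had the second most negative change of the set: it was at 7.10, 8.68 and 9.57 CPM against 3.84, 3.66 and 0.870 CPM, -1.60 (SE 0.40, edgeR adjusted p = 0.0271). CDC25B and KIF18A were the genes called lower in each of the 6 fits that left out 1 library.

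Among kinases of the centrosome and spindle, 3 of 4 fell, with a median of -1.15. AURKA, which matures centrosomes and is activated by TPX2, was at 38.7, 45.0 and 51.7 CPM against 23.1, 33.1 and 17.6 CPM, -0.87 (SE 0.21, edgeR adjusted p = 0.0219). PLK4, the kinase that licenses centriole duplication, fell by 1.25 (SE 0.29, edgeR adjusted p = 0.0193), and NEK2, which separates the centrosomes, fell by 1.43 (SE 0.39, edgeR adjusted p = 0.0384) but was not called by DESeq2 (0.0859). PLK1, which acts from mitotic entry to cytokinesis, was at 40.4, 49.5 and 57.9 CPM against 23.5, 38.1 and 9.39 CPM. Its groups did not overlap, but replicate 2 of siDAB2IP lay just under replicate 1 of siControl, and -1.06 (SE 0.37) did not pass the test (edgeR adjusted p = 0.0856, 0.0400 with the replicate block).

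None of the 4 spindle assembly checkpoint genes passed the test, and their median was -1.02. BUB1B, the BubR1 subunit of the inhibitor of CDC20, was at 31.3, 38.9 and 39.2 CPM against 19.1, 24.9 and 7.48 CPM (-1.08, SE 0.33, edgeR adjusted p = 0.0522). TTK, the MPS1 kinase at the top of the checkpoint, was at 20.2, 21.0 and 22.3 CPM against 10.8, 14.9 and 3.83 CPM (-1.11, SE 0.35, edgeR adjusted p = 0.0636). The 3 control libraries of TTK were close together, and the knockdown libraries spread widely below them. MAD2L1, which binds CDC20, had -0.79 (SE 0.30, edgeR adjusted p = 0.104). BUB1, the kinetochore kinase, was at 32.0, 39.7 and 46.8 CPM against 22.6, 32.3 and 5.91 CPM. Replicate 2 of siDAB2IP exceeded replicate 1 of siControl here, and BUB1 had the largest adjusted p of the set, 0.167 by edgeR, for a change of -0.96 (SE 0.43). With the replicate block, BUB1B, TTK and MAD2L1 passed, with edgeR adjusted p of 0.0214, 0.0261 and 0.0311, and BUB1 did not (0.0871). A group's changes were not compared with another's by a test, and the 4 fitted changes lie within the range of the rest of the set.

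In the chromosomal passenger complex, which corrects faulty attachments and later moves to the midzone, 3 of 4 genes fell, with a median of -1.12. The kinase AURKB was at 22.1, 30.1 and 31.9 CPM against 11.7, 19.7 and 5.45 CPM, -1.19 (SE 0.35, edgeR adjusted p = 0.0494, 0.109 by DESeq2). CDCA8, the borealin subunit, fell by 1.18 (SE 0.28, edgeR adjusted p = 0.0227). INCENP, the scaffold that holds the kinase, was at 67.4, 68.9 and 84.6 CPM against 46.0, 60.3 and 35.4 CPM and had the smallest fall of the group, 0.64 (SE 0.18, edgeR adjusted p = 0.0384). BIRC5, the survivin subunit, had -1.07 (SE 0.36) and did not pass (edgeR adjusted p = 0.0769, 0.0276 with the replicate block), with no overlap between its groups.

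Centromere and kinetochore genes fell in 5 of 6, with a median of -1.26. CENPE (chr4:103105806-103198409), the kinesin that carries chromosomes to the spindle equator, was at 41.1, 60.0 and 66.4 CPM against 20.3, 29.9 and 9.86 CPM, -1.48 (SE 0.32, edgeR adjusted p = 0.0161). CENPF, a large protein of the outer kinetochore, was among the most counted genes of the set, at 277, 368 and 450 CPM against 160, 218 and 61.5 CPM, -1.32 (SE 0.36, edgeR adjusted p = 0.0386, 0.0774 by DESeq2). Control libraries of CENPF themselves ranged widely, yet the lowest stood above the highest knockdown library. CENPA, the histone variant that marks centromeres, fell by 1.10 (SE 0.28, edgeR adjusted p = 0.0297). Of the NDC80 complex, which grips microtubules, NDC80 fell by 1.21 (SE 0.30, edgeR adjusted p = 0.0255) and SPC25 by 1.55 (SE 0.41, edgeR adjusted p = 0.0336). SPC25 was the scarcest of these, at 3.05, 3.11 and 4.29 CPM against 1.13, 1.94 and 0.464 CPM, the last from 8 counts. NUF2, the partner of NDC80, had -1.05 (SE 0.38, edgeR adjusted p = 0.0917, 0.0531 with the replicate block) and passed in neither fit.

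Spindle motors and microtubule-binding proteins were the largest group, and 7 of 10 fell, with a median of -1.23. KIF18A (chr11:28020620-28108308), the kinesin that dampens chromosome movements at the plate, was at 12.9, 15.8 and 17.3 CPM against 7.39, 7.92 and 5.80 CPM, -1.12 (SE 0.18, edgeR adjusted p = 0.00439). Its siDAB2IP libraries all lay below the lowest control library. KIF11, the motor that pushes the spindle poles apart, was at 38.8, 47.7 and 50 CPM against 20.7, 26.9 and 8.47 CPM, -1.28 (SE 0.32, edgeR adjusted p = 0.0258). KIF15, which shares that task, fell by 1.28 (SE 0.27, edgeR adjusted p = 0.0138), and KIF2C, a microtubule depolymerase at centromeres, by 1.20 (SE 0.32, edgeR adjusted p = 0.0340, 0.0654 by DESeq2). TPX2, the activator of AURKA on the spindle, was at 105, 135 and 161 CPM against 68.4, 85.6 and 37.9 CPM, -1.06 (SE 0.26, edgeR adjusted p = 0.0235). CKAP2, a microtubule-associated protein, fell by 0.73 (SE 0.17, edgeR adjusted p = 0.0235), with its knockdown libraries at 26.2, 34.1 and 24.8 CPM. DLGAP5, HMMR and ASPM, which bundle spindle microtubules or focus the poles, had changes of -1.36, -1.05 and -1.26 and did not pass (edgeR adjusted p = 0.0665, 0.0632 and 0.0659), and each passed with the replicate block (0.0350, 0.0270 and 0.0364). NUSAP1, which stabilizes spindle microtubules, fell by 1.26 (SE 0.31, edgeR adjusted p = 0.0244), but a second gene model, AC087721.2, covers its locus and had 0 counts in every library, so its count is uncertain.

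Midzone and cytokinesis genes fell in 3 of 6, with a median of -0.92. KIF20A (chr5:138178719-138187715), the midzone kinesin that relocates the passenger complex, had the most negative change of all 51 genes: 49.8, 67.4 and 76.8 CPM against 19.5, 35.5 and 6.67 CPM, 3.14-fold lower (log2 -1.65, SE 0.43, edgeR adjusted p = 0.0316). DESeq2 did not call KIF20A (adjusted p = 0.0669). KIF23, the kinesin of centralspindlin, fell by 0.87 (SE 0.25, edgeR adjusted p = 0.0428), and ECT2, the exchange factor that activates RhoA at the equator, by 0.66 (SE 0.18, edgeR adjusted p = 0.0376). ANLN, the ring scaffold anillin, was at 105, 145 and 192 CPM against 71.1, 136 and 36.0 CPM. The siDAB2IP replicate 2 value of ANLN lay inside the control range, and -0.86 (SE 0.39) did not pass (edgeR adjusted p = 0.165). KIF14, a kinesin of the midbody, had -1.10 (SE 0.39, edgeR adjusted p = 0.0880, 0.0391 with the replicate block). PRC1, the bundler of midzone microtubules, was counted at 1.93, 1.44 and 1.88 CPM against 0.621, 1.16 and 0.870 CPM (-0.97, SE 0.34, edgeR adjusted p = 0.0838). AC068831.7, a gene model on the same strand across the PRC1 locus, was at 6.98, 7.20 and 10.2 CPM against 2.71, 3.10 and 3.65 CPM, so reads of PRC1 may have been split and its low level is uncertain.

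At the onset of anaphase, 2 of 4 genes fell, with a median of -1.16. CDC20 (chr1:43358955-43363203), the activator of the anaphase-promoting complex, was at 52.0, 61.7 and 70.2 CPM against 24.7, 38.2 and 10.8 CPM, -1.32 (SE 0.34, edgeR adjusted p = 0.0296). UBE2C, the ubiquitin-conjugating enzyme of that complex, was at 24.1, 25.4 and 34.3 CPM against 11.5, 15.6 and 4.06 CPM, -1.42 (SE 0.36, edgeR adjusted p = 0.0296). Neither gene had overlapping groups, and with DESeq2 neither passed (adjusted p = 0.0568 and 0.0554). PTTG1, securin, had the smallest fitted change of the set: 35.9, 38.2 and 35.9 CPM against 27.8, 29.3 and 13.8 CPM, -0.63 (SE 0.23, edgeR adjusted p = 0.0955). ESPL1, separase, stood 1.99-fold lower (SE 0.32 on the log2 scale, edgeR adjusted p = 0.0680). With the replicate block PTTG1 and ESPL1 passed (edgeR adjusted p = 0.0320 and 0.0379), and with DESeq2 PTTG1 did (0.0352) and ESPL1 did not (0.160).

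All 5 genes of mitotic chromosomes fell, with a median of -1.43. TOP2A (chr17:40388516-40417950), the topoisomerase that untangles sister chromatids, was at 200, 257 and 267 CPM against 101, 133 and 34.7 CPM, -1.43 (SE 0.37, edgeR adjusted p = 0.0304). MKI67, the Ki-67 protein that coats mitotic chromosomes and marks cycling cells, was at 183, 210 and 304 CPM against 86.7, 139 and 28.5 CPM, -1.45 (SE 0.43), with the largest adjusted p among the genes that fell, 0.0497 by edgeR. The condensin subunits NCAPG, NCAPH and SMC2, which compact chromosomes, fell by 1.44, 1.25 and 0.94 (SE 0.37, 0.35 and 0.22). DESeq2 called 1 gene of this group, SMC2, with an adjusted p of 0.000364. The DESeq2 adjusted p was 0.0549 for TOP2A, 0.109 for MKI67, 0.0587 for NCAPG and 0.0836 for NCAPH.

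FOXM1, the transcription factor that activates many genes of G2 and M phase, was at 26.9, 29.9 and 35.6 CPM in siControl and 12.1, 23.5 and 5.91 CPM in siDAB2IP. Its groups did not overlap, and its change of -1.15 (SE 0.37) equalled the median of the set. It did not pass the test without the block (edgeR adjusted p = 0.0644) and did with it (0.0268).

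The size of the change differed between the replicate numbers. Within number 1, siDAB2IP against siControl, the median log2 ratio over the 51 genes was -0.81, within number 2 it was -0.63 and within number 3 it was -2.50. All 51 ratios were negative in each of the 3, and 28.3% of all genes tested were negative in all 3. The summed level of the 51 genes was 2732, 3290 and 3788 CPM in siControl and 1557, 2109 and 761 CPM in siDAB2IP. siDAB2IP replicate 3 was the lowest of its group in 50 of 51 genes (PRC1 was the exception) and replicate 2 the highest in 48, while siControl replicate 1 was the lowest of its group in 48 and replicate 3 the highest in 47. The ratios of number 3 thus set the highest control library against the lowest knockdown library in most of these genes. The median SD of log2 CPM among knockdown libraries was 0.90 for the 51 genes and 0.20 for all genes tested. Among control libraries it was 0.23 and 0.15. The median SE of the fitted change was accordingly 0.34 for the mitotic genes and 0.16 for all genes tested.

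**Figure D4:**
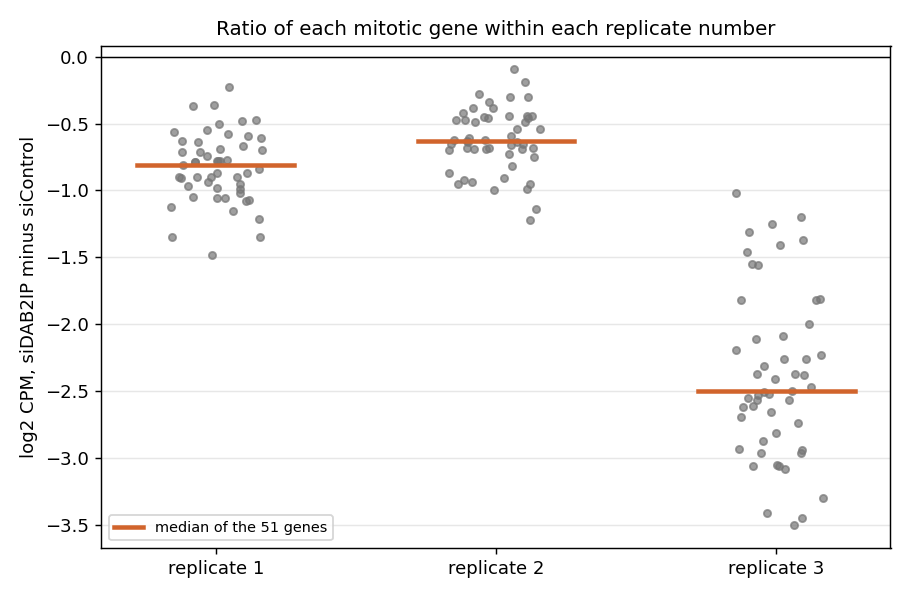
Log2 ratio of CPM, siDAB2IP minus siControl, for each of the 51 genes within each replicate number (grey points), with the median as a bar. Every point lies below 0, with medians of -0.81, -0.63 and -2.50 for replicate numbers 1, 2 and 3.

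The genes kept a similar order of change in the 3 comparisons by number only in part: over the 51 genes, Spearman's rho between the ratios was 0.34 for numbers 1 and 2, 0.47 for 1 and 3 and 0.38 for 2 and 3, a description over genes of the same libraries. Without siDAB2IP replicate 3, the median fitted change was -0.85 and 47 genes fell, against 8.59% of all genes. Without siDAB2IP replicate 2, 47 fell, against 6.44%, and without siDAB2IP replicate 1, 10 fell, against 5.40%. Leaving out siControl replicate 1, 2 or 3 left 15, 2 and 3 genes past the threshold, against 4.74%, 2.90% and 4.10% of all genes. The counts of 2 and 3 among 51 genes are close to those shares. The 2 genes called in all 6 of these fits were CDC25B and KIF18A, and BUB1 and PRC1 were called in none. siDAB2IP replicate 3 thus had the lowest mitotic levels and also the highest mitochondrial share. The part of the mitochondrial share in the result was not tested.

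Beyond these 51, 116 further genes of mitosis were listed by their textbook roles, with earlier results of these data known, and all were tested. Of them 36 fell (31.0%, against 7.65% of all genes tested) and 2 rose, against 6.55%, at a median change of -0.49 on the log2 scale, and in 71 (61.2%, against 18.3%) every siDAB2IP library was below every siControl library. Other spindle genes fell in 9 of 16, among them TROAP, a spindle pole protein, at 38.4, 37.2 and 45.6 CPM against 16.8, 22.1 and 7.83 CPM (-1.37, SE 0.29, edgeR adjusted p = 0.0134). Inner kinetochore and centromere loading genes fell in 8 of 19, with CENPK at -1.06 and CENPU at -1.34 (SE 0.19 and 0.27). The other outer kinetochore genes fell in 4 of 16, with SPC24, the partner of SPC25, at 14.3, 15.2 and 15.3 CPM against 7.11, 9.14 and 2.96 CPM (-1.22, SE 0.31). In this group 6 were lower with the replicate block, against 11.4% of all genes tested. DESeq2 called 7 of them lower, against 8.98% of the genes it tested. None of the 5 other checkpoint genes passed, and the largest change among them was that of TRIP13, which recycles MAD2, at -0.48 (SE 0.17, edgeR adjusted p = 0.0831, 0.0408 with the replicate block).

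For the counts that follow, 7.65% of all genes tested fell, 11.4% with the replicate block and 8.98% of the genes tested by DESeq2. Of other mitotic entry genes 3 of 12 fell, and 6 with the replicate block. Among the 3 was PKMYT1, an inhibitory kinase of CDK1, at -1.18 (SE 0.31, edgeR adjusted p = 0.0336, 0.0641 by DESeq2). Other midzone and cytokinesis genes fell in 2 of 6, and in 4 with the replicate block. RACGAP1, the partner of KIF23 in centralspindlin, was at 43.9, 50.6 and 53.3 CPM against 23.9, 30.6 and 18.3 CPM (-1.02, SE 0.17, edgeR adjusted p = 0.00557), and CEP55, which recruits the abscission machinery, had -1.38 (SE 0.43) and did not pass (edgeR adjusted p = 0.0584, 0.0247 with the replicate block). Of 5 other condensin genes SMC4 fell, by 1.02 (SE 0.21), while all 5 had every siDAB2IP library below every siControl library, and 4 were lower with the replicate block and 4 with DESeq2. Cohesin genes fell in 4 of 10, and in 7 with the replicate block, among them STAG1, STAG2 and SMC1A, by 0.84, 0.69 and 0.70, while CDCA5, sororin, had -1.03 and an edgeR adjusted p of 0.0533, or 0.0225 with the replicate block and 0.00371 by DESeq2.

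The further genes of the anaphase-promoting complex comprised 14 subunits, the coactivator FZR1 and the ubiquitin-conjugating enzyme UBE2S. Over all 16 the median log2 fold change was 0.04 and over the 14 subunits it was 0.06. Among the subunits 1 fell (CDC23, -0.36, SE 0.10) and 1 rose (ANAPC13, 0.47, SE 0.11), with edgeR adjusted p of 0.0420 and 0.0237. Of all 16 genes 6.25% fell, near the 7.65% of all genes tested, and 6.55% of all genes tested rose. CDC23, ANAPC13, FZR1 and UBE2S were named after their values were seen. ANAPC10 had the largest value of the group, 0.83 (SE 0.35), and did not pass. The summed level of the 14 subunits was 697, 726 and 723 CPM in siControl and 740, 727 and 717 CPM in siDAB2IP, and the groups overlap. FZR1, which like CDC20 activates the complex, was at 0.06 (SE 0.10) and UBE2S, which like UBE2C serves it with ubiquitin, at -0.42 (SE 0.22), and neither passed. These values were not compared by a test with those of CDC20 and UBE2C. Among 11 genes of the DREAM and MYBL2-MuvB complexes and their E2F partners, 4 fell, 36.4% against 7.65% of all genes tested. Of these 11 genes 1 rose, against 6.55% of all genes tested. MYBL2, the activator of late cell cycle genes, was at 28.3, 27.3 and 33.1 CPM against 8.69, 17.4 and 4.46 CPM (-1.53, SE 0.36, edgeR adjusted p = 0.0223). RBL1, the pocket protein p107, fell by 1.12 (SE 0.19), RBBP4, a histone-binding subunit of MuvB, by 0.57 (SE 0.09), and TFDP1, the dimer partner of E2F proteins, by 0.52 (SE 0.10). E2F4, the repressor E2F of DREAM, rose by 0.38 (SE 0.11, edgeR adjusted p = 0.0423) and was also named after its value was seen.

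**Figure D5:**
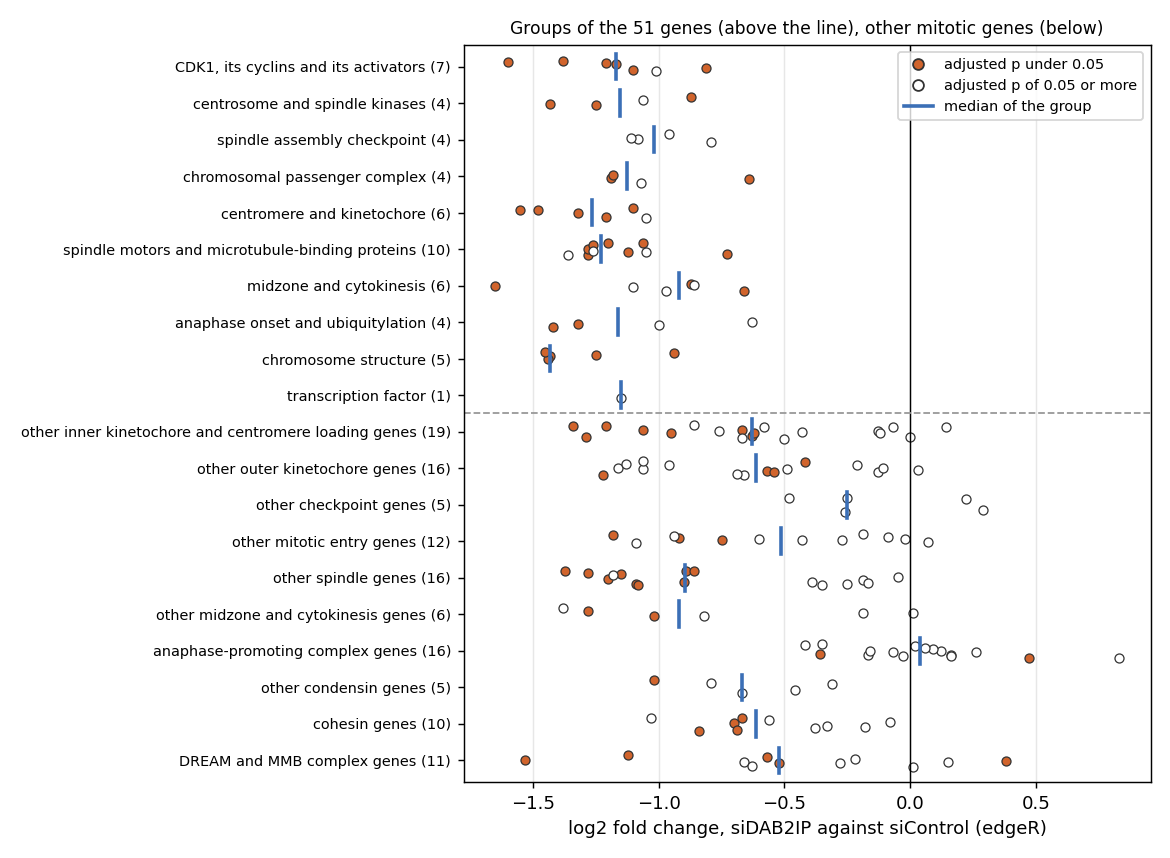
Log2 fold change of each gene, siDAB2IP against siControl, by role group with the number of genes in parentheses, filled points for an edgeR adjusted p under 0.05 and a blue bar at each group's median. The 10 groups of the 51 genes lie wholly below 0, while most groups of further mitotic genes reach past 0, with the anaphase-promoting complex centred at 0.04.

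Counting limits touch some of these genes. 9 of the 51 lie across from a tested gene encoded on the other strand (CCNA2, CDC25C, NUF2, KIF18A, KIF20A, PRC1, ANLN, NCAPG and FOXM1) and CENPA, KIF15 and PRC1 share bases with a tested gene on their own strand. NUSAP1 does so with AC087721.2, which was not tested. Since no source states whether counting used the strand, their counts could hold reads of the neighbour or lack shared reads. KIF20A overlaps CDC23, so these counts may share reads. Processed pseudogenes that carry the names of the 51 genes had at most a mean of 4.83 counts per library.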

How the data were processed

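RNA-Seq of 3 siControl and 3 siDAB2IP MCF10A libraries was used. The authors deposited unnormalized read counts per gene, and beside them FPKM values that the authors scaled by gene length and library total. The submitters' processing notes name STAR 2.6.1d, featureCounts 1.5.0-p3, DESeq2 1.20.0, edgeR 3.24.3 and hg38, with no role or order given. All 58735 gene positions equal those of GENCODE 29. Tests were run on the counts with edgeR 4.0.16 in R 4.3.3 (TMM after filterByExpr, then glmQLFit and glmQLFTest without covariates), with Benjamini-Hochberg adjustment over 15430 genes and an adjusted p under 0.05 called as rose or fell. SEs were derived from the F statistic. A test of 3 against 3 by exact permutation cannot go below 0.1 and was not used.

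The alternatives were DESeq2 1.42.0, RLE or no scaling factors, no filter or at least 10 counts in every library, an adjusted p under 0.01, the replicate block, limma 3.58.1 on log2(FPKM + 1) or + 0.1 where mean FPKM reached 1 and for all genes with a count, and leaving out each library or both libraries of a number. The labels do not say whether replicates were separate cultures, so p-values measure the spread between these libraries. Over all genes tested, same-numbered libraries deviated from their group means together (correlations of 0.26, 0.15 and 0.25, against -0.28 to 0.02 for different numbers). Deviations within a group cancel out, so these values are not independent. They were read as pairing, although the labels do not say what a number stands for. The 51 genes did not show it for number 3: siControl replicate 3 was the highest of its group in 47 and siDAB2IP replicate 3 the lowest in 50. Depth was 16353783 to 21916062 counts a library, and limits from 3 counts cover counting error only. Genes named are all 51, DAB2IP, the 10 further mitotic genes with the smallest p, the gene of largest change in each further group and the listed cell type markers, and outside this rule CDC23, ANAPC13, FZR1, UBE2S and E2F4, named after their values were seen. The members and lists were chosen with earlier results of these data known.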

Additional observations from a re-analysis of the deposited data

How the results depend on the processing

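All 51 fitted changes were negative under every alternative in which the gene was fitted, and none of the 51 genes rose under any. With the replicate block 47 of the 51 fell and 52 of the 116 further genes did, against 11.4% of all genes tested. The call of no other named gene changed beyond those given with a blocked value. The count of 34 became 50 with no filter on low counts, against 5.72% of all genes fitted, and 21 with DESeq2. It became 17 and 9 with limma on log2(FPKM + 1) and log2(FPKM + 0.1), against 6.58% and 6.11% (50 of the 51 were fitted), 1 on log2(FPKM + 1) of all genes with a count, against 0.683%, and 2 at an adjusted p under 0.01, against 2.38%. Leaving out 1 library gave 2 to 47, and leaving out both libraries of a number gave 2, 7 and 40 for numbers 1, 2 and 3, against 1.70%, 1.09% and 8.41%. Where only 1 or 2 of the 51 genes fell, the count differs little from the share over all genes in that setting. Among the 116 further genes, the 36 that fell became 60 with no filter, against 5.72% of all genes fitted. The count was 20 with limma on log2(FPKM + 0.1) and 2 on all genes with a count, against 6.11% and 0.683%. It was 6 at an adjusted p under 0.01, against 2.38%, and 2 to 52 with libraries left out, against 1.09% to 8.59%. The 2 that rose became 1 with limma on log2(FPKM + 1) or + 0.1, 0 on all genes with a count or at an adjusted p under 0.01, and 0 to 2 with libraries left out. The share of all genes that rose is not given for these settings. A left-out library leaves fewer samples, yet leaving out siDAB2IP replicate 2 or 3 raised the count of the 51 genes to 47. The cause of the differences between settings was not tested. The median member log2 fold change lay between -1.56 and -0.74, and DAB2IP kept its call under every alternative.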
